A study of Homo sapiens with 6 samples.

Results

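The genes described here encode the 9 enzymes that build purine nucleotides from simple precursors and carry inosine monophosphate (IMP) on to guanosine monophosphate (GMP). They are PPAT, GART, PFAS, PAICS, ADSL, ATIC, IMPDH1, IMPDH2 and GMPS. They were chosen by symbol and not by a rule on their values, although earlier results of these data were known. Of the 9, 9 had a row among the 15794 human genes of the authors' deposited table.

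De novo synthesis assembles the purine ring stepwise on phosphoribosyl pyrophosphate (PRPP), a sugar made by PRPP synthetases. PPAT catalyses the committed first reaction, the enzymes GART, PFAS, PAICS, ADSL and ATIC complete the ring to give IMP, and IMP is then turned into AMP or GMP. The carbon units that GART and ATIC add come from folate. Dividing cells draw on the pathway for DNA and RNA precursors, and several genes of nucleotide supply are known targets of E2F transcription factors.

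The data are poly(A) RNA sequencing of eHAP cells, a haploid human line derived from HAP1, which goes back to a chronic myeloid leukaemia. All 6 samples came from eHAP cells that express Cas9, were transfected with a guide plasmid bearing a puromycin resistance gene, were selected between 24 and 72 h and were harvested on day 5. The 3 TFDP1 samples received guides against TFDP1, which encodes the DNA-binding partner of most E2F factors. The 3 control samples are labelled NC, of wild-type genotype with no gene knocked out, and the labels do not describe their guide. The labels call the 3 samples of each group biological replicates. They mention no cloning step, so each sample is taken to be a pool of selected cells, and the share of edited cells is unknown here. Each sample combined 500000 eHAP cells with a spike-in of 10000 S2 cells from Drosophila before RNA was extracted. The comparison addresses how the transcriptome of cells with TFDP1 guides differs from that of controls.

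Each gene has 1 log2 fold change between the groups, 1 mean level in log2 CPM (counts scaled to library size) and 1 adjusted p. No values per sample entered the results, so the replicate spread and the library depths are unknown, and batches could not be examined. Where an error is printed, it is an approximate standard error (SE) derived from the authors' likelihood ratio. TFDP1 itself had a log2 fold change of 1.17 ± 0.03 (approximate SE) in the authors' deposited table, at 226 CPM. Which group is the numerator is not stated there. Positive below therefore means higher in whichever group had more TFDP1 transcript, and negative the opposite. The table does not tell apart whether this is the knockout or the control. Of 14 blood markers 7 had a row, at 0.161 to 18.1 CPM, and PTPRC, SPI1 and GATA1, which define blood lineages, had none. Of these 7, 2 were negative (KIT and TAL1) and 1 positive (ITGA2B) in the authors' deposited table, where 22.2% of all genes were called negative and 17.3% positive. Of 10 fibroblast markers 6 had a row, of which 4 were negative at up to 19.4 CPM and 1 positive, FBLN1 at 0.15 and 245 CPM. Of 8 epithelial markers 6 had a row, 3 negative and 0 positive. Their part in the results on purine enzymes was not tested.

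The purine enzymes did not move as a block. Of the 9, 3 were positive in the authors' deposited table at an adjusted p under 0.05 (GMPS, PAICS and PPAT), 2 were negative (IMPDH1 and ADSL) and 4 did not pass (GART, ATIC, PFAS and IMPDH2). Among all genes 39.5% were called, 17.3% positive and 22.2% negative. Well-expressed genes were called more often: 56.6% of the 2607 genes within the enzymes' range of levels, 27.5% positive and 29.1% negative. The 3 positive calls were lost when trends on transcript length and GC content were removed, while the 2 negative calls held. After that removal, 2318 of the 14777 genes fitted were positive and 38.5% were called. As deposited, the enzymes' count lay near the share of genes called at their level. The median log2 fold change of the 9 was 0.05, against -0.03 over all genes, and the values ran from -0.27 to 0.18. The largest difference was 1.21-fold. The median enzyme differed by 1.10-fold in either direction, against 1.16-fold for the median gene of the whole table and 1.11-fold for that of genes at or above the median level.

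**Figure D1:**
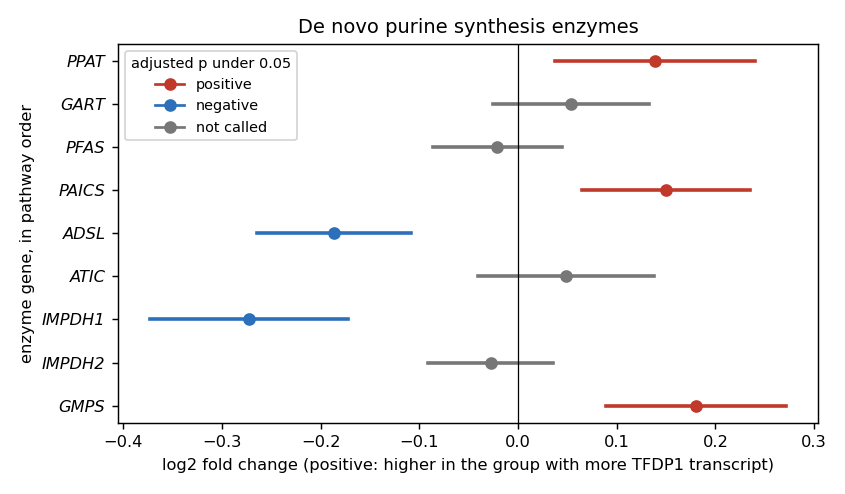
Log2 fold change of each enzyme gene (horizontal axis) in pathway order (vertical axis), with bars for the approximate 95% interval, coloured by call at an adjusted p of 0.05. GMPS, PAICS and PPAT lie right of 0, IMPDH1 and ADSL left of it, and the bars of the other genes cross 0.

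All 9 genes were abundantly transcribed, from 95.4 CPM for PPAT to 623 CPM for PAICS, so the precision was high, with approximate SEs between 0.03 and 0.05 on the log2 scale. PPAT exceeded 82.5% of the table's genes in level and PAICS 99.0%. In the plot of fold change against level, the enzymes sit in the narrow band near 0 that well-expressed genes form.

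**Figure D2:**
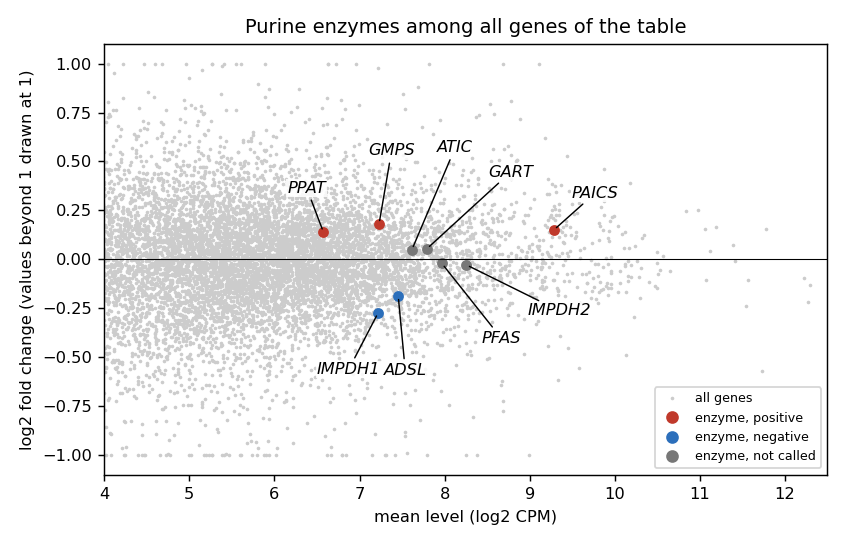
Log2 fold change (vertical axis, clipped at 1 in both directions) against mean level in log2 CPM (horizontal axis, genes above 4 shown) for genes of the table in grey and the 9 enzymes in colour. The enzymes lie between -0.27 and 0.18, inside the grey cloud.

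Levels of different genes can be compared only per length. Divided by the length of their annotated exons, the mean levels over both groups ranged from 16.9 CPM per kb for GMPS to 110 CPM per kb for IMPDH2. PAICS followed IMPDH2 at 82.8 CPM per kb, and then came ATIC (49.9), IMPDH1 (40.7), PFAS (38.7), GART (28.6), ADSL (24.7) and PPAT (17.5). PPAT, whose product opens the pathway, and GMPS, whose product closes the guanylate branch, thus had the lowest levels per kb. The spread of these levels over samples is unknown, so neighbours in the order, such as PPAT and GMPS or IMPDH1 and PFAS, are not shown to differ. The exon length counts the exons of every annotated transcript and can far exceed that of any single one. For GART it is 7751 bases, against 3571 for its longest transcript, so the place of GART in the order depends on the length used.

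**Figure D3:**
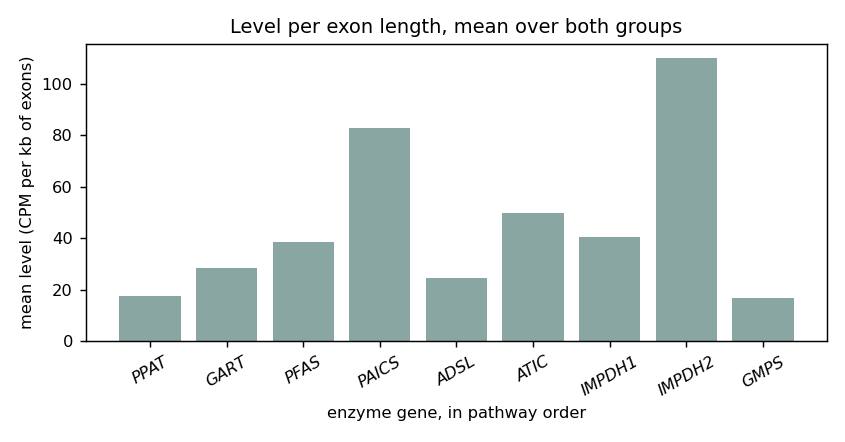
Mean level over both groups in CPM per kb of annotated exons (vertical axis) for the 9 enzyme genes in pathway order (horizontal axis), with no error bars because values per sample were not used. IMPDH2 at 110 and PAICS at 82.8 stand highest, GMPS at 16.9 and PPAT at 17.5 lowest.

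PPAT encodes amidophosphoribosyltransferase, which starts the pathway by placing an amino group on PRPP, and PAICS encodes the bifunctional carboxylase and synthetase that acts midway. The genes lie head to head on chromosome 4 of GRCh38, PPAT at 56393362 to 56435615 on the minus strand (ENSG00000128059.8 in GENCODE 29) and PAICS at 56435741 to 56464579 on the plus strand (ENSG00000128050.8). Their annotated starts are 126 bases apart and their exons share 0 bases. Divergent genes this close can share a promoter region. The 125 bases between the annotated genes are shown on the plus strand, so that PPAT starts to the left and PAICS to the right. Capitals mark GC boxes (GGGCGG, the core of sites bound by Sp1-type factors, searched on both strands after the sequence was seen). The sequence is RefSeq's, build GRCh38.p14, chr4:56435616-56435740.
PPAT-PAICS spacer: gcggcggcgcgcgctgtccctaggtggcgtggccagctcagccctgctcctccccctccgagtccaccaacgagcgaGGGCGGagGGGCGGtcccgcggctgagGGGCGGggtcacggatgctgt
The spacer held 3 GC boxes and was 76.0% G and C.

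These divergent genes had nearly the same fold change. PPAT had a log2 fold change of 0.14 ± 0.05 in the authors' deposited table (95.4 CPM, adjusted p = 0.0250), or 10.1% higher with an approximate 95% interval from 2.60% to 18.1%. PAICS had one of 0.15 ± 0.04 (623 CPM, adjusted p = 0.00258), or 11.0% higher with an interval from 4.59% to 17.7%. The intervals overlap almost wholly. The difference between the 2 genes was not tested.

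GART encodes the trifunctional enzyme that carries out several of the early steps. It lies on chromosome 21 at 33503931 to 33543491 on the minus strand (ENSG00000159131.16). Its log2 fold change was 0.05 ± 0.04 in the authors' deposited table, at 221 CPM (adjusted p = 0.330), and the interval ran from -1.72% to 9.65%. GART also has a head-to-head partner, SON, which encodes a splicing cofactor. The starts are 873 bases apart, and their exons overlap by 275 bases, 3.55% of the exon length of GART. SON was positive at 0.14 ± 0.05 in the authors' deposited table (602 CPM, adjusted p = 0.0110), a call lost with the length and GC trends described below removed (0.04, adjusted p = 0.588). How the authors' counting treated strand is not stated in the sources, so reads in the overlap cannot be assigned to either gene.

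PFAS encodes the amidotransferase that acts between steps of GART. The gene is on chromosome 17 at 8247618 to 8270491, plus strand (ENSG00000178921.13). Its log2 fold change of -0.02 ± 0.03 in the authors' deposited table (250 CPM, adjusted p = 0.686) had an interval from -5.78% to 3.10%. Its divergent neighbour CTC1, a gene of telomere maintenance, was not called either, at -0.06 ± 0.08 and 21.1 CPM (adjusted p = 0.635). The GENCODE starts of PFAS and CTC1 lie 477 bases apart. The RefSeq start used below for the promoter window of PFAS, 8249289, lies further inside PFAS.

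ADSL encodes adenylosuccinate lyase, which acts both on the way to IMP and in the branch from IMP to AMP. It was negative, at -0.19 ± 0.04 in the authors' deposited table (175 CPM, adjusted p = 2.23e-05), with an interval from -16.8% to -7.24%. The gene lies on chromosome 22 at 40346500 to 40390463, plus strand (ENSG00000239900.12). A further gene model on the same strand, AL022238.4, starts 29 bases away and shares 1344 exon bases with it, 18.9% of the exon length of ADSL. That model has no row among the genes analysed, and how shared reads were counted is not given, so the value of ADSL is uncertain to that extent.

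ATIC encodes the bifunctional enzyme that adds the last carbon and closes the ring to IMP. Its gene is on chromosome 2 at 215311817 to 215349773, plus strand (ENSG00000138363.14). The log2 fold change was 0.05 ± 0.05 in the authors' deposited table (196 CPM, adjusted p = 0.454), with an interval from -2.74% to 10.0%.

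IMP dehydrogenase, the rate-limiting step toward guanine nucleotides, is encoded by a pair of paralogues. IMPDH2, the form raised in proliferating cells, is on chromosome 3 at 49024325 to 49029408, minus strand (ENSG00000178035.11). IMPDH1, which many tissues express at a basal level, is on chromosome 7 at 128392277 to 128410252, minus strand (ENSG00000106348.17). IMPDH1 was negative at -0.27 ± 0.05 in the authors' deposited table (149 CPM, adjusted p = 9.8e-07), or a difference of -17.2% with an interval from -22.8% to -11.3%. IMPDH2 was at -0.03 ± 0.03 (305 CPM, adjusted p = 0.566), with an interval from -6.11% to 2.51%. The 2 intervals do not overlap, although the difference between the paralogues was not itself tested. Per exon length IMPDH2 was the more abundant, at 110 against 40.7 CPM per kb.

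GMPS encodes GMP synthetase, which aminates xanthosine monophosphate to GMP. It had the highest fold change of the 9, 0.18 ± 0.05 on the log2 scale in the authors' deposited table (150 CPM, adjusted p = 5.87e-04), or 13.3% higher with an interval from 6.37% to 20.7%. The gene lies on chromosome 3 at 155870536 to 155944026, plus strand (ENSG00000163655.15). As deposited, the guanylate branch held both the most negative and the most positive enzyme of the 9, an order that did not hold with length and GC trends removed, where ADSL (-0.24) was lowest and ATIC (0.08) highest. Pseudogenes, counted by names formed from those of members, are annotated for IMPDH1 (7), PAICS (7), PPAT (2) and GMPS (1). None of these had a row among the genes analysed, and reads that match both a gene and such a copy make its level uncertain.

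The 3 enzymes called positive had the lowest GC content of the 9. The longest transcripts of PPAT, PAICS and GMPS are 33.8%, 42.3% and 40.9% G and C, below the 6 other enzymes, which run from 45.3% for ADSL to 62.8% for IMPDH1. Their lengths are 4043, 6480 and 8751 bases, against a median of 3487 bases over all matched genes. Over the whole table the medians leaned the same way: positive genes had a median GC content of 43.7% and a median length of 4481 bases, and negative genes 54.2% and 3339 bases. When trends of fold change on length and GC content were removed, PPAT went to -0.02 (adjusted p = 0.824), PAICS to 0.02 (0.738) and GMPS to 0.01 (0.891), and 0 of 9 enzymes were called positive. IMPDH1, at -0.12 (adjusted p = 0.0406), and ADSL, at -0.24 (1.62e-08), were still called negative. Of the 14777 matched genes, 2318 were positive with trends removed, and 38.5% were called in either direction. Whether length and GC content account for the positive values was not tested.

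The scaling between the groups also mattered. The 79 ribosomal protein genes had a median log2 fold change of -0.08. With fold changes re-centred on that median, GART (0.14, adjusted p = 0.00267) and ATIC (0.13, adjusted p = 0.0118) joined the positive calls, giving 5 positive and 2 negative enzymes, and the median of the 9 became 0.13. The calls of IMPDH1 (-0.19) and ADSL (-0.10) held there too. Under that scaling PFAS and IMPDH2 turned to 0.06 and 0.05 without being called. Re-centring moved every gene by the same amount. Among all 15794 genes, 4214 were then positive and 42.8% were called, and the median over all genes became 0.06.

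**Figure D4:**
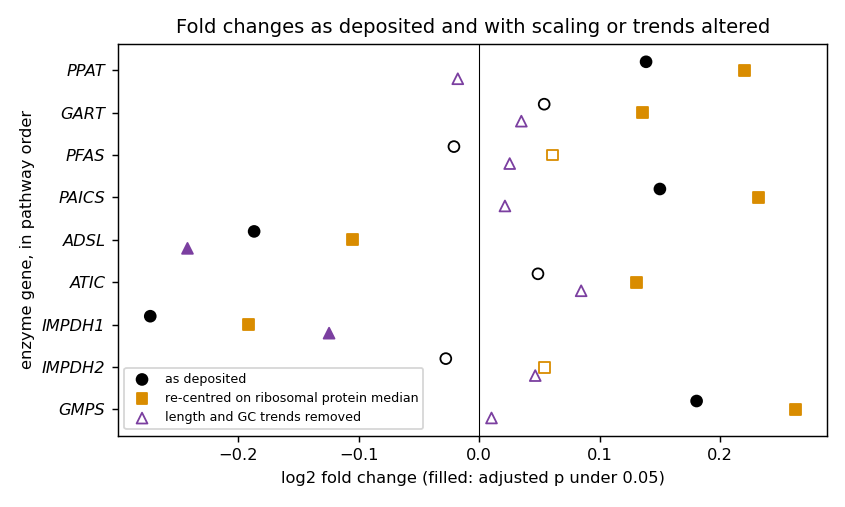
Log2 fold change (horizontal axis) of the 9 enzyme genes (vertical axis, pathway order) as deposited, re-centred on the ribosomal protein median and with length and GC trends removed, with filled symbols at an adjusted p under 0.05. IMPDH1 and ADSL stay left of 0 in all 3, and the values of PPAT, PAICS and GMPS drop to between -0.02 and 0.02 once trends are removed.

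Promoter windows of RefSeq (GRCh38.p14, 250 bases before to 50 bases after a start, 300 bases in all) matched 7 of the 9 genes, with ADSL and IMPDH2 unmatched. Where a gene has several windows, that nearest to its GENCODE start was taken. The E2F letters TTTCCCGC, TTTCGCGC, TTTGCCGC and TTTGGCGC, searched on both strands, were in 0 of the 7 windows, in 3.30% of all 34943 windows and in 4.65% of the 16351 windows of genes in the table. The E-box CACGTG, the letters bound by MYC-type and other basic helix-loop-helix factors, was in 3 of 7 against 7.23% of all and 9.05% of the table's windows. CCAAT was in 1 of 7 (GART) against 34.6% of all windows, and the CHR letters TTTGAA in 0 of 7 against 15.2% of all and 10.7% of the table's. The GC box was in 6 of 7 against 44.9% of all and 64.3% of the table's, with the windows of PPAT and PAICS sharing the sites of their spacer. These are counts of letters in short windows, not of bound sites.

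The E-boxes are shown because PPAT and PAICS share theirs: it is a single site, at positions 56435792 to 56435797 of chromosome 4, that falls in both windows. ATIC carries 2, and its fold change did not pass the test. Each line has the E-box in capitals, on the strand of PPAT for the shared site and on that of ATIC for the others (chr4:56435780-56435809, minus strand, then chr2:215312001-215312030 and chr2:215312076-215312105, plus strand).
PPAT and PAICS: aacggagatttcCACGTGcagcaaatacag
ATIC, before the RefSeq start: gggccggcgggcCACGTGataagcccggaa
ATIC, after the RefSeq start: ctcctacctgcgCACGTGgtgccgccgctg
Counted from the RefSeq starts, the site shared by PPAT and PAICS begins at -182 for PPAT (start at 56435615) and at 40 for PAICS (start at 56435752). The sites of ATIC begin at -46 and 29 from its RefSeq start at 215312059, and both lie inside the gene as GENCODE 29 annotates it.

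Most lists of genes around the pathway covered a wider range of values than the enzymes, while de novo pyrimidine synthesis covered a similar one, -0.19 to 0.26. Lists other than pyrimidine synthesis and proliferation markers also held genes at much lower levels, where values are less precise. The lowest was 0.215 CPM in folate supply, against 95.4 CPM for the lowest enzyme. Of 5 PRPP supply genes 1 was positive and 1 negative in the authors' deposited table, and these were the paralogous synthetases. These counts lie near the shares over all genes, 17.3% positive and 22.2% negative. PRPS2 had a log2 fold change of 0.42 ± 0.04 (123 CPM, adjusted p = 8.02e-21) and PRPS1 one of -0.34 ± 0.04 (286 CPM, adjusted p = 1.75e-19). The other members, including the regulatory subunits PRPSAP1 (0.11) and PRPSAP2 (0.09), did not pass. The median of the list was 0.11.

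In the branch to AMP and the interconversion of purine nucleotides, 5 of 7 genes with a row were negative and 0 positive, where 22.2% of all genes were negative and 17.3% positive. The list median was -0.34 on the log2 scale, against -0.03 over all genes. ADSS, the synthetase that works with ADSL toward AMP, was at -0.30 ± 0.07 (70.0 CPM) in the authors' deposited table, and the muscle-type paralogue ADSSL1 at -1.71 ± 0.34, at only 1.10 CPM. The GMP reductases GMPR2 and GMPR, which return GMP to IMP, were at -0.34 ± 0.05 and -0.59 ± 0.15. The AMP deaminase AMPD2, outside the rule for named genes, was the remaining negative gene at -0.15 ± 0.06.

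Among 10 genes of salvage and breakdown, 4 were positive and 2 negative around a median of 0.02, where 17.3% of all genes were positive and 22.2% negative. The deoxycytidine kinase DCK, which also phosphorylates deoxypurines, was at 0.62 ± 0.07 and adenosine kinase ADK at 0.24 ± 0.07 in the authors' deposited table. HPRT1, which salvages hypoxanthine and guanine, was at 0.16 ± 0.05 and the mitochondrial nucleotidase NT5M at 0.38 ± 0.14. NT5M, at only 6.22 CPM, was not called at an FDR under 0.01 (adjusted p = 0.0240). APRT, which salvages adenine, was negative at -0.26 ± 0.05, as was the nucleotidase NT5C2 at -0.27 ± 0.05. With length and GC trends removed APRT went to -0.06 (adjusted p = 0.388).

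Kinases that raise nucleoside monophosphates and diphosphates had 6 negative members and 1 positive among 16, and their median was -0.07. Over all genes 22.2% were negative and 17.3% positive. The guanylate kinase GUK1, which acts on the product of GMPS, was at -0.34 ± 0.06 (133 CPM) in the authors' deposited table. The mitochondrial adenylate kinase AK4 was at -0.61 ± 0.08, and the diphosphate kinases NME4 and NME3 were at -0.31 ± 0.05 and -0.32 ± 0.08. NME3 was not called once length and GC trends were removed (-0.11, adjusted p = 0.277). AK9 was the positive gene, at 0.92 ± 0.24 and 2.08 CPM.

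Folate enzymes that supply carbon units for GART and ATIC had 5 positive members and 1 negative among 13, and their median was 0.17. Over all genes 17.3% were positive and 22.2% negative, and within the enzymes' range of levels 27.5% and 29.1%. The mitochondrial enzymes SHMT2 (0.43 ± 0.05), MTHFD1L (0.41 ± 0.04) and MTHFD2 (0.33 ± 0.05) led the list in the authors' deposited table. The folate carrier SLC19A1 was negative at -0.23 ± 0.06, a call lost with length and GC trends removed (-0.10, adjusted p = 0.155). The 5 genes of de novo pyrimidine synthesis, the sister pathway, gave 2 positive and 1 negative with a median of 0.03, against the same shares of all genes. CTPS1 (0.22 ± 0.04) and DHODH (0.26 ± 0.08) stood against CAD (-0.19 ± 0.05), the enzyme that opens that pathway.

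Proliferation markers were set beside the enzymes because purine demand is known to follow growth. Of 16 such markers 13 were positive and 1 negative, where 17.3% of all genes, and 27.5% of those within the enzymes' range of levels, were positive. Their median was 0.31 on the log2 scale against 0.05 for the purine enzymes. RRM2 (1.23), MKI67 (1.00), TOP2A (0.62) and MCM4 (0.50) had the smallest p among the positive markers in the authors' deposited table. MCM5 was the negative marker at -0.11, a call lost with either re-centring and with the trends removed (adjusted p from 0.0767 to 0.640). Growth itself was not measured, so the marker transcripts do not show whether the groups grew differently. TFDP1 encodes a partner of E2F factors, and whether these act directly on the markers was not tested. The part of proliferation in the values of the purine enzymes was not tested.

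**Figure D5:**
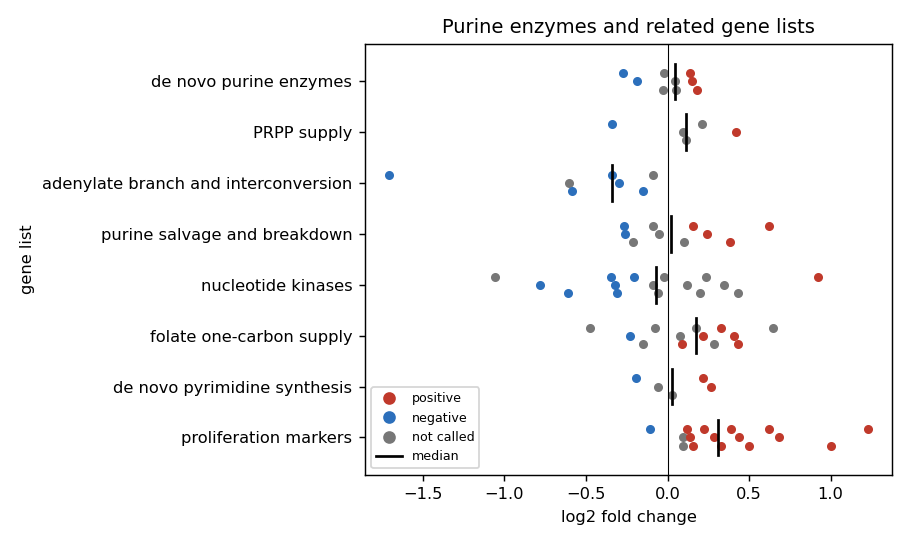
Log2 fold change (horizontal axis) of each gene with a row in the table, by gene list (vertical axis), coloured by call at an adjusted p of 0.05, with black bars at list medians. The purine enzymes span -0.27 to 0.18, the adenylate branch has its median at -0.34 and the proliferation markers theirs at 0.31.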

How the data were processed

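Libraries were made from poly(A) RNA with a NEBNext Ultra II kit and sequenced on an Illumina HiSeq, per the labels' protocols. Tools listed in the submitters' processing notes are edgeR, featureCounts, HISAT2 and Trimmomatic, with dm6 and hg38 as builds and no versions. The log2 fold changes and log2 CPM levels are the authors' deposited values. The p-values and FDR are the authors' own and come, per the file headers, from a likelihood ratio test. The likelihood ratio is used as the authors deposited it, as a score. For library scaling and counting the settings were not stated in these sources. Genes were called at the deposited FDR under 0.05, the planned form for a table of comparisons. Benjamini-Hochberg adjustment of the same p-values over the 15794 rows gave 6424 calls, against 6244 as deposited. The deposited adjustment was therefore not made over these rows alone. Calls after re-centring or trend removal use a recomputed adjustment and so differ from the deposited calls in this too. With 1 contrast no likeness of pattern could be measured. Protein sequences were not used here.

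The approximate SE is the absolute log2 fold change over the root of the likelihood ratio, and 95% intervals use a normal distribution. Re-centred and trend-free values were divided by it, tested two-sided against a normal distribution and adjusted by Benjamini-Hochberg over all rows. This recomputed test was run on simulated fold changes whose noise was drawn from the same approximate SEs. Such a run cannot show whether those SEs suit the data. It did not cover the re-centring or the removal of trends. Trends were removed by lowess (span 0.3, statsmodels 0.14.6) on the longest GENCODE 29 transcript of the 14777 genes matched by symbol (93.6%). Exon lengths are unions over transcripts.

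The text names the 9 enzymes, TFDP1, up to 4 called genes per list and direction by smallest p, and divergent neighbours starting within 1000 bases. A gene that this rule selects is not reported here. The members and lists were chosen with earlier results of these data known. Python 3.11.15, pandas 2.3.3, numpy 2.4.6, scipy 1.17.1 and matplotlib 3.10.9 were used.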

Additional observations from a re-analysis of the deposited data

How the results depend on the processing

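Alternatives were a stricter FDR, adjustment over the rows of the table, re-centring on the median gene or on ribosomal protein genes, a level filter, removal of length and GC trends and a minimum change of 0.32 on the log2 scale. For the purine enzymes, the 2 negative calls were lost only with the minimum change, where 0 positive and 0 negative enzymes were left. The positive count was 5 with ribosomal re-centring, where the median was 0.13, and 0 with trends removed, and PPAT was not called at an FDR under 0.01 (2 positive). Among all genes, positive calls numbered 4214 of 15794 with ribosomal re-centring and 2318 of 14777 with trends removed. Signs turned for PFAS (0.00447 with re-centring on the median gene, 0.0609 on ribosomal genes, 0.0254 without trends), IMPDH2 (0.0541 on ribosomal genes, 0.0465 without trends), PPAT (-0.0177 without trends) and CTC1 (0.0223 on ribosomal genes), none of them called after the turn. The cause was not tested, except that a minimum change removes small changes by construction.

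Counts of the other lists moved as follows. With re-centring on the median gene, positive genes numbered 2 for PRPP supply and 3 for nucleotide kinases, and negative proliferation markers 0. With ribosomal re-centring the positive counts were 3 for PRPP supply and 5 for kinases, and negative proliferation markers 0. With adjustment over the table's rows, positive kinases numbered 2. With the level filter, positive kinases numbered 0 of 9 and negative adenylate branch genes 3 of 3, as fewer genes were tested. At an FDR under 0.01 negative proliferation markers numbered 0. With trends removed, negative counts were 2 for pyrimidine synthesis, 0 for folate supply, 0 for proliferation and 1 for salvage. With the minimum change, negative counts were 3 for the adenylate branch, 0 for pyrimidine synthesis, 0 for folate supply, 3 for kinases, 0 for proliferation and 0 for salvage. Positive counts there were 0 for pyrimidine synthesis, 3 for folate supply, 8 for proliferation and 2 for salvage.

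Over all genes, the positive share of calls was 43.9% as deposited, 49.9% and 62.3% with the 2 re-centrings. No paired analysis was possible because the result comes from a table of 1 comparison without values per sample, and for the same reason leaving out replicates and DESeq2 were not run. Depth behind each value is unknown.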
